A study of Homo sapiens with 54 samples.

Results

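WM266-4 is an established human melanoma cell line with the genotype BRAF V600D, a mutant form of the kinase BRAF. Vehicle-treated cells of this line were compared between 24 h and 3 h of exposure to DMSO, the solvent that carries the inhibitors in the rest of the experiment. All arrays labelled DMSO were used, 3 at 24 h and 3 at 3 h, which makes 6 of the 54 arrays in the series. Per the labels, 300000 cells were seeded per well 24 h before treatment, so the arrays at 24 h were taken 48 h after seeding and those at 3 h were taken 27 h after seeding. The labels record no change of medium between seeding and harvest, and no array stands for the moment at which DMSO was added. Time since plating, time with DMSO, culture density and hour of harvest therefore cannot be told apart.

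Of the other arrays, 24 came from the same cells treated for 24 h or 3 h with the RAF inhibitor LGX818 (encorafenib) at 0.05 µM, the MEK inhibitors trametinib at 0.003 µM or MEK162 (binimetinib) at 0.3 µM, or an ERK1/2 inhibitor without a given name at 0.2 µM, and 6 came from parental cells at day 7 and day 3. The parental labels disagree on doxycycline, which one field names as the treatment and another leaves out. The dose of DMSO was not given. Each group holds arrays a, b and c, called triplicates without word on whether they were separate cultures, so the p-values measure the spread between those arrays, which may be technical. For the DMSO comparison that spread was pooled over all 10 groups of the inhibitor experiment, inhibitor-treated ones included.

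Values are log2 intensities normalised by the authors with RMA (robust multi-array average), 1 value per probe set and array. They compare the same gene between arrays and do not rank genes against each other. In all, 9703 genes had a mean above 7.86, the median of all values, in at least 1 of the 10 groups of the inhibitor experiment and were tested. Genes with a limma p-value below 0.05 after Benjamini-Hochberg adjustment are the ones called changed.

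The arrays of 1 time point correlated at r = 0.993 to 0.997 with each other, and arrays of different time points at 0.978 to 0.985. The difference between 3' and 5' probes of GAPDH, a sign of RNA integrity, was 0.185 to 0.291 log2 at 24 h and 0.163 to 0.27 log2 at 3 h, so the times overlapped. All 7 melanocyte markers lay above the median level. The mean level of the list was 12.3 to 12.4 log2 at 24 h and 12.2 log2 on every array at 3 h. The leukocyte list had 1 of 7 markers above the median (CD53) and a mean level of 5.53 to 5.67 log2 at 24 h and 5.47 to 5.53 log2 at 3 h. The epithelial list had 0 of 6 above it and ran at 4.78 to 5.02 log2 at 24 h and 4.74 to 4.87 log2 at 3 h. The fibroblast list had 1 of 8 (COL1A2) and ran at 6.12 to 6.21 log2 at 24 h and 6.21 to 6.28 log2 at 3 h. At 24 h the markers PTPRC, EPCAM and COL1A1, 1 from each list, averaged 3.36, 3.31 and 4.25 log2. At 3 h they averaged 3.43, 3.36 and 4.36 log2, and the lowest value on the arrays was 2.51. The members with the highest values, CD53, KRT5 and COL1A2, averaged 8.05, 6.13 and 12.88 log2 at 24 h. Their means at 3 h were 7.88, 6.03 and 12.79 log2.

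Cells that have been detached and plated are known to switch on immediate early genes, a set of transcription factors and secreted proteins that respond to serum, attachment and mechanical tension within minutes to hours and then decline. Much of that response runs through the factors SRF and AP-1 and through YAP, a coactivator that enters the nucleus in spread, uncrowded cells and works with the DNA-binding TEAD factors. As cultures fill and use their medium, genes of growth arrest, of the FOXO factors and of metabolic adjustment are known to go up. Whether either process accounts for the changes below was not tested, and the arrays at 3 h were taken 27 h after seeding.

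In DMSO cells at 24 h against 3 h the largest changes were falls. At 24 h the secreted matricellular protein CCN1 was 7.2-fold lower, the monocyte chemokine CCL2 6.34-fold lower, the WNT antagonist DKK1 5.39-fold lower, the glycosyltransferase B3GALT2 4.98-fold lower, CCN2 4.83-fold lower and the neutrophil chemokine CXCL1 4.72-fold lower than at 3 h. These 6 genes were at least 4-fold lower and 0 genes were at least 4-fold higher. The largest rise was that of PNRC1, a nuclear receptor coactivator, at 3.02-fold. Across all tested genes 1586 were called higher at 24 h (16.3%) and 1457 lower (15%), which together make 31.4% of those tested. Most of these differences were small: 2399 of the 3043 called genes (78.8%) moved by less than 0.5 log2, and the median size among called genes was 0.33 log2. At least 2-fold and called were 37 genes higher (0.381%) and 35 lower (0.361%). The 3 arrays at 24 h all lay above the 3 arrays at 3 h for 2217 genes (22.8%) and all below them for 2051 (21.1%). The median difference over all tested genes was 0.0047 log2. The arrays read RNA of whole cultures, so fewer cells with a transcript and less of it per cell cannot be told apart.

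**Figure D1:**
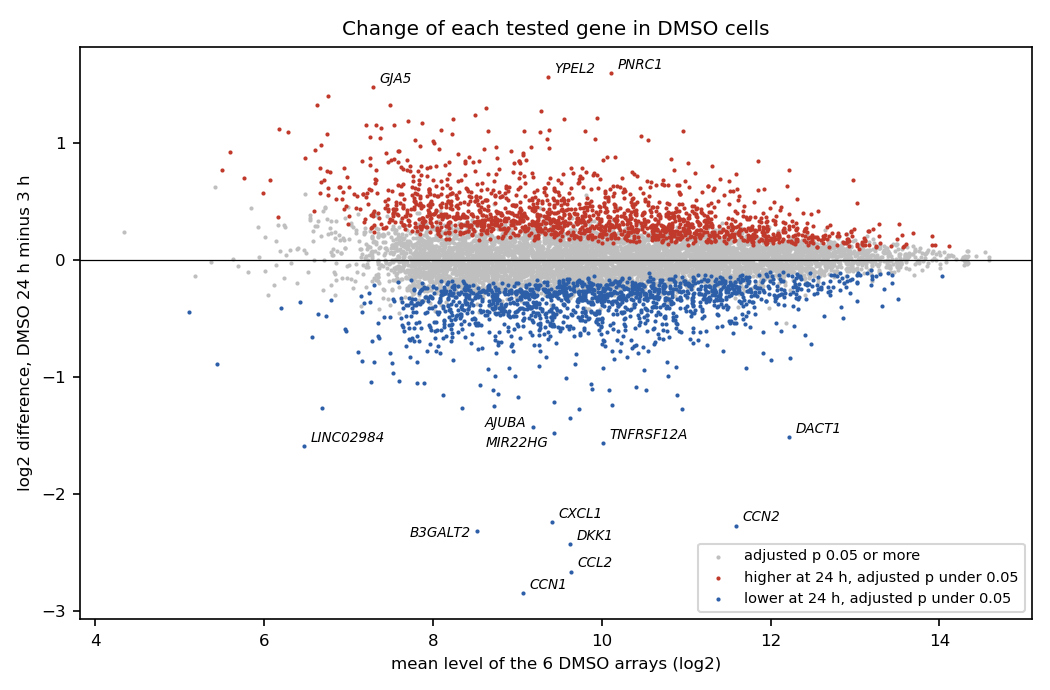
Difference between DMSO cells at 24 h and at 3 h (log2, vertical axis) against the mean log2 level over the 6 arrays (horizontal axis), with 1 point per tested gene. Colours mark genes called higher or lower at 24 h, and the 6 genes past a 4-fold change all lie on the lower side.

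CCN1 and CCN2 are secreted matrix-associated proteins and textbook targets of YAP and TEAD. CCN1 measured 7.64, 7.56 and 7.75 log2 at 24 h against 10.53, 10.31 and 10.65 log2 at 3 h (difference -2.85 ± 0.089 SE, adjusted p = 1.94e-18). CCN2 measured 10.50, 10.46 and 10.42 log2 at 24 h against 12.79, 12.50 and 12.91 log2 at 3 h (-2.27 ± 0.14 SE, adjusted p = 2.39e-12). For both, every array at 24 h lay below every array at 3 h. The promoter window of CCN2 is printed because 3 copies of the TEAD half-site GGAATG lie in it, and that of DKK1 because it holds 1. Both are the 250 bases before the gene's start from RefSeq (GRCh38.p14), 5′ to 3′ along the gene's strand, with GGAATG in capitals. The CCN2 window is chr6:131951373-131951622 on the minus strand and the DKK1 window is chr10:52314031-52314280 on the plus strand.
CCN2: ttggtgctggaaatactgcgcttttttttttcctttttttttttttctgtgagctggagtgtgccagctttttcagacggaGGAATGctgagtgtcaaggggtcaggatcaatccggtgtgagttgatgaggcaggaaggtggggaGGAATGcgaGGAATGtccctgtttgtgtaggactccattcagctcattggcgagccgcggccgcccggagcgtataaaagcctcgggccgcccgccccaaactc
DKK1: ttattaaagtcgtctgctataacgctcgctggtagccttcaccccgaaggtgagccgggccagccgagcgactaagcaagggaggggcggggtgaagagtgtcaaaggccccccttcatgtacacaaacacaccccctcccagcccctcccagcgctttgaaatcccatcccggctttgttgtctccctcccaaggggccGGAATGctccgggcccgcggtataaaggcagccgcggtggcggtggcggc

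In a list of 20 tested SRF and YAP/TEAD target genes, 12 were lower at 24 h and 4 higher, against 15% and 16.3% of all genes, with a median difference of -0.47 log2. AJUBA, a LIM protein that restrains the LATS kinases of the Hippo pathway, measured 8.41, 8.48 and 8.52 log2 at 24 h against 9.97, 9.85 and 9.87 log2 at 3 h (-1.43 ± 0.073 SE, adjusted p = 7.38e-14). AMOTL2, an angiomotin that binds YAP, measured 10.14, 10.38 and 10.41 log2 at 24 h against 11.52, 11.46 and 11.43 log2 at 3 h (-1.16). Also lower were the matrix protein THBS1 (-0.87), the myosin light chain MYL9 (-0.76), the Hippo kinase LATS2 (-0.72), the actin-binding TPM1 (-0.61), the coagulation initiator F3 (-0.57), the factor TEAD4 itself (-0.51), CRIM1 (-0.44) and the focal adhesion protein VCL (-0.23). The 4 higher members were ANKRD37 (0.74), which is also a hypoxia gene, smooth muscle actin ACTA2 (0.58), CCN5 (0.32) and the YAP paralogue WWTR1 (0.14). The count of lower members was 12 on leaving out any DMSO array. The count of higher members was 2 without 24 h array a or without 3 h array a.

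Immediate early genes and AP-1 factors went the same way: 17 of 21 tested members (81%) were lower at 24 h and 0 higher. Among all genes 15% were lower and 16.3% higher. The median of the list was -0.46 log2. JUN, the central AP-1 subunit, measured 8.05, 8.09 and 8.17 log2 at 24 h against 9.27, 9.39 and 9.39 log2 at 3 h (-1.25 ± 0.064 SE, adjusted p = 7.38e-14, 2.37-fold lower). ZFP36, which speeds the decay of cytokine mRNAs, measured 8.10, 8.15 and 8.30 log2 at 24 h against 9.10, 9.05 and 9.20 log2 at 3 h (-0.93). The AP-1 subunits FOSL1 (-0.80), FOSB (-0.61), FOSL2 (-0.36), JUNB (-0.36) and JUND (-0.20), the small MAF protein MAFF (-0.78), SRF (-0.65), EGR3 (-0.55), the orphan receptor NR4A1 (-0.49) and the stress factor ATF3 (-0.46) were lower as well. FOS lay below the level filter and was not tested. It stood at 6.22, 6.11 and 6.45 log2 at 24 h against 6.78, 6.88 and 6.84 log2 at 3 h. EGR1, often taken as the model immediate early gene, did not pass (-0.30, adjusted p = 0.184), nor did MYC (-0.18, adjusted p = 0.373). With the 6 DMSO arrays fitted alone EGR1 was called lower, so its call depends on the arrays that set the spread. Without single DMSO arrays 15 to 17 members of the list were lower.

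**Figure D2:**
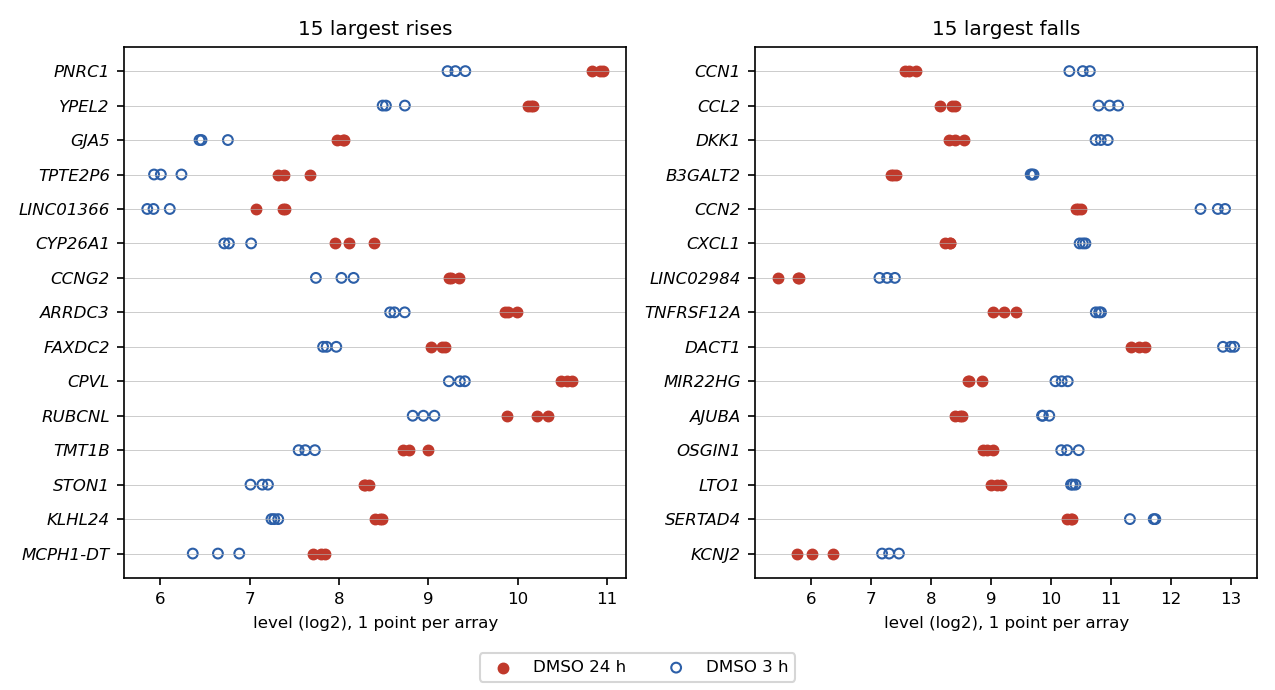
Level (log2, horizontal axis) of the 15 largest rises (left panel) and the 15 largest falls (right panel) in each of the 6 DMSO arrays, with 1 row per gene, filled points for 24 h and open points for 3 h. The rule that chose these genes required that the points of the 2 times do not overlap.

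The cytokine and NF-kB list had 7 of 12 tested members lower (58.3%) and 0 higher, against 15% and 16.3% of all genes. Its median was -0.35 log2. NF-kB is the factor through which inflammatory signals and cell stress switch on chemokine genes. CCL2 measured 8.35, 8.40 and 8.16 log2 at 24 h against 11.12, 10.80 and 10.98 log2 at 3 h (-2.66 ± 0.13 SE, adjusted p = 1.85e-14). CXCL1 measured 8.24, 8.32 and 8.32 log2 at 24 h against 10.58, 10.48 and 10.53 log2 at 3 h (-2.24 ± 0.26 SE, adjusted p = 2.9e-07). CXCL8, or interleukin-8, measured 10.51, 10.51 and 10.26 log2 at 24 h against 11.44, 11.23 and 11.35 log2 at 3 h (-0.92, adjusted p = 0.000681). All 3 chemokines were lower on every 24 h array than on any 3 h array, and the CXCL8 difference was the smallest of them. The cytokine LIF (-0.92), the NF-kB feedback inhibitors TNFAIP3 (-0.59) and NFKBIA (-0.38) and IL24 (-0.33) were also lower. The count of lower members was 7 on leaving out any DMSO array. The promoter window of CXCL1, chr4:73869143-73869392 on the plus strand of GRCh38.p14 (RefSeq), is shown because a match to the NF-kB motif (GGG, any 2 bases, then TTTCC), in capitals, lies in it.
CXCL1: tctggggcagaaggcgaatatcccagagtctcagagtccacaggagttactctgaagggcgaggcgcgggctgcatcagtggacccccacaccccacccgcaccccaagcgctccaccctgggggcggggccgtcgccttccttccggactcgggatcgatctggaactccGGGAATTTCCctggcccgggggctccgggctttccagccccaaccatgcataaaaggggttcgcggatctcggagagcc

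DKK1 and DACT1 both restrain WNT signalling, DKK1 outside the cell at the receptor and DACT1 inside it at Dishevelled. DKK1 measured 8.40, 8.30 and 8.54 log2 at 24 h against 10.95, 10.74 and 10.83 log2 at 3 h (-2.43 ± 0.077 SE, adjusted p = 1.94e-18). DACT1 measured 11.56, 11.47 and 11.34 log2 at 24 h against 13.06, 13.00 and 12.87 log2 at 3 h (-1.52 ± 0.058 SE, adjusted p = 1.27e-16). The list of WNT antagonists and feedback genes as a whole showed no common direction, with a median of 0.00 log2. Of 7 tested members 2 were lower (28.6%, DKK1 and ZNRF3, -0.47) and 1 higher (14.3%, LEF1, 0.35). Among all genes 15% were lower and 16.3% higher. A further 10 members lay below the level filter. LEF1 lost its call without 24 h array a or 3 h array b.

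B3GALT2 measured 7.41, 7.36 and 7.33 log2 at 24 h against 9.71, 9.68 and 9.66 log2 at 3 h (-2.31 ± 0.08 SE, adjusted p = 1.1e-17), so its 24 h level lay below the filter value that its 3 h level passed. TNFRSF12A, the receptor of the cytokine TWEAK, measured 9.42, 9.22 and 9.03 log2 at 24 h against 10.84, 10.75 and 10.80 log2 at 3 h (-1.57). MIR22HG, the host transcript of miR-22, measured 8.61, 8.63 and 8.85 log2 at 24 h against 10.28, 10.08 and 10.18 log2 at 3 h (-1.48). The remaining largest falls were those of the non-coding LINC02984 (-1.59), OSGIN1 (-1.35), LTO1 (-1.28), SERTAD4 (-1.28) and the potassium channel gene KCNJ2 (-1.27). LINC02984 and KCNJ2 lay below the filter value in both DMSO groups, with means of 5.67 and 6.05 log2 at 24 h and 7.27 and 7.32 log2 at 3 h, and were tested because an inhibitor group passed it. At 24 h these levels were close to those of the leukocyte list, so the size of their falls is uncertain. The TGF-beta feedback gene PMEPA1 fell by 1.12 log2 to a mean of 9.97 log2 at 24 h, against 11.09 log2 at 3 h. In its list of TGF-beta and BMP targets 5 of 13 were lower (38.5%) and 3 higher (23.1%), against 15% and 16.3% of all genes. Among the lower ones were TGFBI (-0.65), SKIL (-0.60) and SMAD7 (-0.41). The higher ones were the BMP targets ID2 (0.57, below the filter value in both DMSO groups), ID3 (0.40) and ID4 (0.30). The lower count was 3 without 24 h array c or 3 h array b, and 2 without 3 h array a.

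Some genes of oxidative stress, amino acid response and ribosome production were lower, while most members of each of these lists did not pass the test or were higher. Their shares of lower genes were 38.5%, 39.1% and 45.5%, beside 15% lower and 16.3% higher among all genes. NRF2 is the factor that induces antioxidant enzymes, and 5 of 13 tested genes of its list were lower and 0 higher (median -0.09 log2). OSGIN1, an NRF2 target, measured 9.04, 8.87 and 8.94 log2 at 24 h against 10.27, 10.17 and 10.46 log2 at 3 h. The others were the sulfiredoxin SRXN1 (-0.83), both subunits of the glutathione-making ligase, GCLM (-0.80) and GCLC (-0.32), and TXNRD1 (-0.34). Of 23 genes of the ATF4 response to amino acid shortage 9 were lower and 3 higher (median -0.10 log2), with the factors ATF5 (-0.83) and CEBPG (-0.55), the amino acid transporter subunits SLC3A2 (-0.55) and SLC7A5 (-0.50) and the folate enzyme MTHFD2 (-0.52) among the lower ones, and VLDLR (0.74), DDIT4 (0.68) and CTH (0.37) higher. Of 33 ribosome biogenesis genes 15 were lower and 0 higher (median -0.22 log2). These included URB2 (-0.55), the RNA polymerase I initiation factor RRN3 (-0.53), the rRNA methyltransferase NOP2 (-0.51) and the shared polymerase I and III subunit POLR1C (-0.45). RRN3 measured 10.96, 11.45 and 11.30 log2 at 24 h against 11.83, 11.75 and 11.73 log2 at 3 h, with array a the lowest at 24 h. Without single DMSO arrays, 13 to 16 members of the ribosome list were lower.

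**Figure D3:**
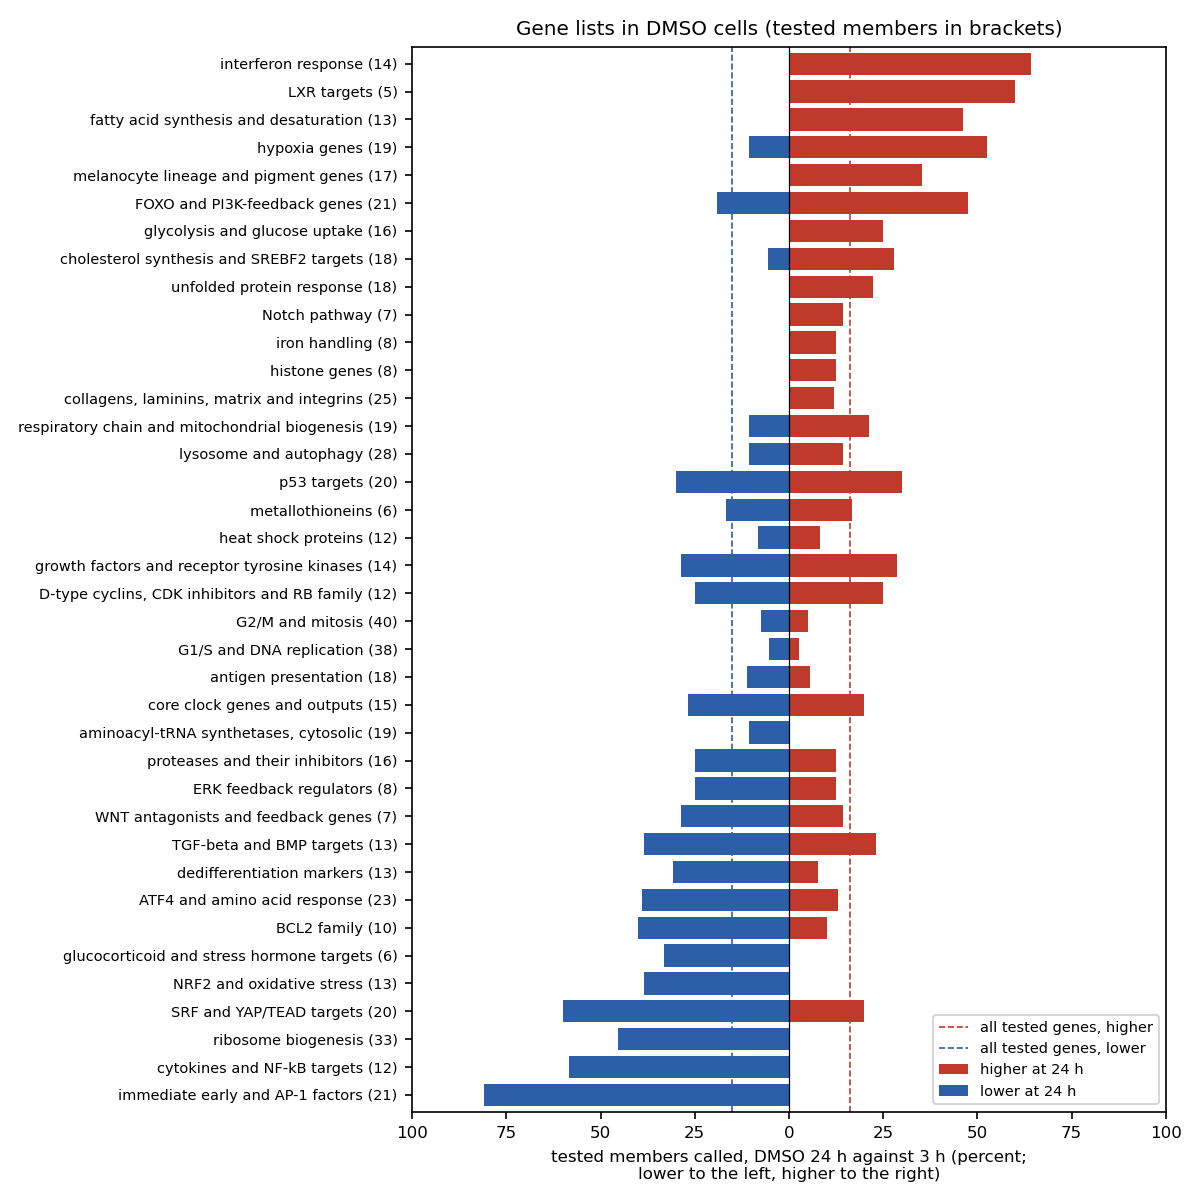
Share (percent, horizontal axis) of the tested members of each gene list that were called lower (bars to the left) or higher (bars to the right) in DMSO cells at 24 h against 3 h, with 1 row per list of 5 or more tested members. Dashed lines mark the shares among all tested genes, 15% lower and 16.3% higher, and the bars of the immediate early, cytokine, ribosome and SRF and YAP/TEAD lists reach furthest to the left.

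Among the rises, PNRC1 measured 10.84, 10.92 and 10.96 log2 at 24 h against 9.30, 9.22 and 9.41 log2 at 3 h (1.60 ± 0.082 SE, adjusted p = 7.38e-14). YPEL2, of a family of small zinc-binding proteins, measured 10.17, 10.11 and 10.15 log2 at 24 h against 8.49, 8.74 and 8.53 log2 at 3 h (1.56 ± 0.069 SE, adjusted p = 3.31e-15, 2.94-fold higher). The gap junction gene GJA5 measured 8.04, 7.97 and 8.05 log2 at 24 h against 6.44, 6.76 and 6.46 log2 at 3 h (1.47). Each was higher on all 3 arrays at 24 h, and each rose by less than the 6 largest falls. CYP26A1, which breaks down retinoic acid, measured 8.11, 7.95 and 8.39 log2 at 24 h against 6.72, 6.77 and 7.02 log2 at 3 h (1.32). The next largest rises were those of the pseudogene TPTE2P6 (1.40), the non-coding LINC01366 (1.32), CCNG2 (1.30), the alpha-arrestin ARRDC3 (1.27), FAXDC2 (1.24), the carboxypeptidase CPVL (1.21), RUBCNL (1.20), TMT1B (1.20), the endocytic adaptor STON1 (1.18), the ubiquitin ligase adaptor KLHL24 (1.17) and the non-coding MCPH1-DT (1.15). TPTE2P6, LINC01366 and MCPH1-DT lay below the filter value in both DMSO groups, with means of 7.46, 7.28 and 7.78 log2 at 24 h and 6.06, 5.96 and 6.63 log2 at 3 h, and were tested because an inhibitor group passed it. The same held in all for 7 of the 37 rises and 3 of the 35 falls past 2-fold. TPTE2P6 has close copies in the genome, so its probe set may read more than 1 of them.

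FOXO factors enter the nucleus when PI3K and AKT signalling is low and switch on genes of cell cycle exit and protein breakdown. Of 21 tested FOXO and PI3K-feedback genes 10 (47.6%) were higher at 24 h and 4 (19%) lower, against 16.3% and 15% of all genes (median 0.23 log2). CCNG2, an unconventional cyclin of resting cells, measured 9.25, 9.34 and 9.23 log2 at 24 h against 8.03, 8.16 and 7.74 log2 at 3 h (1.30 ± 0.1 SE, adjusted p = 4.24e-10). The ubiquitin ligase gene FBXO32 measured 8.73, 8.65 and 8.55 log2 at 24 h against 7.42, 7.68 and 7.51 log2 at 3 h (1.11). The receptor ERBB3 (0.59), CITED2 (0.53), FOXO1 (0.50), FOXO4 (0.47), SESN3 (0.38), PIK3IP1 (0.37), SESN1 (0.35) and the CDK inhibitor CDKN1B (0.24) were higher, while GADD45A (-0.64), TRIM63 (-0.33) and the insulin receptor substrates IRS1 (-0.30) and IRS2 (-0.14) were lower. CDKN1B lost its call without 3 h array c, and the lower count was 2 without 3 h array b. The CCNG2 promoter window, chr4:77156957-77157206 on the plus strand of GRCh38.p14 (RefSeq), is shown as that of a rise, with its E-box CACGTG in capitals.
CCNG2: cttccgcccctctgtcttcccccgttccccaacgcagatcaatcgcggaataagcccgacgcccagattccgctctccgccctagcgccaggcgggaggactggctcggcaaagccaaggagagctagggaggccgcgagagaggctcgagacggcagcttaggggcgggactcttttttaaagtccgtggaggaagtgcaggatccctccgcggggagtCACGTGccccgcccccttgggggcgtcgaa

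Genes induced by interferon, whose products sense and block viral RNA, were higher in 9 of 14 tested cases and lower in 0 (median 0.29 log2), against 16.3% and 15% of all genes. IFIT1 measured 9.93, 9.73 and 9.92 log2 at 24 h against 8.71, 8.77 and 9.01 log2 at 3 h (1.03). IFIT2 measured 10.67, 10.54 and 10.57 log2 at 24 h against 9.70, 9.73 and 9.72 log2 at 3 h (0.88). XAF1 (0.56), PARP9 (0.48), ISG15 (0.43), IFIT3 (0.41), IFI44 (0.30), BST2 (0.28) and the RNA sensor RIGI (0.27) made up the rest. Without single DMSO arrays 6 to 9 members were higher. In the antigen presentation list, which interferon also induces, 1 of 18 genes was higher (PSMB9, 0.31, lost without 24 h array a, 3 h array a or 3 h array b) and 2 were lower.

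Pigment cell genes rose in part. MITF, the master factor of the melanocyte lineage, measured 12.61, 12.61 and 12.50 log2 at 24 h against 12.01, 12.11 and 12.03 log2 at 3 h (0.52 ± 0.048 SE, adjusted p = 5.57e-09). Its target TRPM1, a cation channel gene, measured 8.77, 8.67 and 8.84 log2 at 24 h against 7.61, 7.77 and 7.68 log2 at 3 h (1.07). PPARGC1A, the coactivator of mitochondrial biogenesis and also an MITF target in melanoma, measured 11.58, 11.53 and 11.44 log2 at 24 h against 10.40, 10.55 and 10.30 log2 at 3 h (1.10). In all 6 of 17 lineage genes were higher (35.3%) and 0 lower, against 16.3% and 15% of all genes. Besides MITF and TRPM1 the higher ones were SLC45A2 (0.23), EDNRB (0.20), MLANA (0.18) and RAB38 (0.14), and the list median was 0.10 log2. The pigment enzyme TYRP1 did not pass (0.09). In the list of dedifferentiation markers 4 of 13 were lower, JUN, the nerve growth factor receptor NGFR (-0.74), TGFBI and SNAI2 (-0.30), and 1 was higher, ZEB1 (0.48), or 2 without 24 h array b.

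Hypoxia genes, which HIF factors induce when oxygen is short, were higher in 10 of 19 tested cases and lower in 2 (median 0.21 log2). Among all genes 16.3% were higher and 15% lower. ANKRD37 measured 10.03, 10.04 and 10.01 log2 at 24 h against 9.29, 9.23 and 9.35 log2 at 3 h (0.74). DDIT4, an inhibitor of mTORC1, measured 13.29, 13.32 and 13.34 log2 at 24 h against 12.60, 12.63 and 12.68 log2 at 3 h (0.68). The histone demethylase KDM3A (0.57), the mitophagy receptor BNIP3L (0.49), PFKFB4 (0.38) and the kinase PDK1 (0.35) were higher, while ANGPTL4 (-0.72) and adrenomedullin ADM (-0.26) were lower. In the glycolysis list 4 of 16 were higher and 0 lower, and no called member of it reached 0.5 log2.

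In the lipid lists more genes were higher than lower, beside 16.3% higher and 15% lower among all genes. The list medians were 0.16 log2 for fatty acid synthesis, 0.148 log2 for cholesterol synthesis and 0.317 log2 for LXR targets. In fatty acid synthesis 6 of 13 members were higher, led by ACACB (0.44) and the desaturase SCD (0.36), in cholesterol synthesis 5 of 18, led by DHCR7 (0.49), with LPIN1 lower (-0.21), and among LXR targets 3 of 5, led by the LXR gene NR1H3 itself (0.72). The fatty acid count was 3 without 24 h array a, 24 h array b or 3 h array c, and the cholesterol count was 3 without 24 h array a, 3 h array a or 3 h array c. HMGCS1, the first committed enzyme of the cholesterol pathway, did not pass (0.15).

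Of 38 genes of G1/S and DNA replication 1 was higher and 2 lower (median -0.10 log2), and of 40 genes of G2/M and mitosis 2 were higher and 3 lower (median -0.06 log2), beside 16.3% higher and 15% lower among all genes. The G2/M count of lower genes was 1 without 24 h array a, and that of higher genes was 1 without 24 h array a, 24 h array b, 3 h array a or 3 h array c. The G1/S count of higher genes was 0 without 24 h array a, 24 h array c or 3 h array b. E2F1 was the exception in size, at 9.26, 9.94 and 10.04 log2 at 24 h against 10.38, 10.28 and 10.45 log2 at 3 h (-0.62, adjusted p = 0.0021), with array a far below the other arrays at 24 h. The proliferation marker MKI67 measured 10.13, 10.15 and 10.33 log2 at 24 h against 10.05, 10.53 and 10.06 log2 at 3 h (-0.01, adjusted p = 0.961), and its arrays overlapped. The ERK feedback genes, which follow the output of the pathway that mutant BRAF drives, split as well: SPRY1 was higher (0.84), DUSP5 (-0.55) and DUSP6 (-0.23, adjusted p = 0.0297) were lower, and SPRY4 did not pass (0.09). The DUSP6 call was lost without 24 h array a, 24 h array c, 3 h array a or 3 h array b, and with each array centred on its median. Of 10 tested genes of the BCL2 family 4 were lower (40%) and 1 higher (10%). The survival genes MCL1 (-0.47), BCL2L2 (-0.40) and BCL2 (-0.37) and the death promoter PMAIP1 (-0.75) were lower, and BAX was higher (0.33).

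The circadian clock makes the levels of its own genes cycle over the day in many cells. Of 15 tested clock genes and outputs 3 were higher (20%) and 4 lower (26.7%), with a median of 0.19 log2. Among all genes 16.3% were higher and 15% lower, so these shares were not far from those. DBP, an output gene of the clock, measured 9.07, 9.01 and 8.83 log2 at 24 h against 8.12, 8.22 and 8.05 log2 at 3 h (0.84, adjusted p = 1.14e-06). The repressor gene CRY1 measured 9.27, 9.23 and 9.52 log2 at 24 h against 10.11, 9.97 and 9.92 log2 at 3 h (-0.66). NFIL3 (0.67) and NR1D1 (0.54) were higher and CRY2 (-0.45), PER3 (-0.26) and CSNK1D (-0.25) lower, while NR1D2 (-0.04) and BMAL1 (0.19, adjusted p = 0.0959) did not pass. NR1D1 lost its call without 24 h array c, and PER3 without 24 h array a or 3 h array b, with the 6 DMSO arrays fitted alone and with all 54 arrays fitted. PER2 lay below the level filter at 5.34, 5.14 and 5.18 log2 at 24 h and 6.11, 6.35 and 5.91 log2 at 3 h.

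Other lists moved in both directions or hardly at all. Their counts stand beside 16.3% higher and 15% lower among all genes. Among p53 targets 6 of 20 were higher, such as the p53-inducible TP53INP1 (0.50) and MDM2, the ubiquitin ligase of p53 (0.27), and 6 lower, such as PMAIP1 and GADD45A. Among growth factors and receptor tyrosine kinases 4 of 14 were lower, the ephrin receptor EPHA2 (-0.93), the EGF-family ligand HBEGF (-0.69), FGF2 (-0.27) and IGFBP3 (-0.14), and 4 higher, IGFBP5 (0.61), ERBB3, FGFBP2 (0.37) and TGFA (0.34), and the lower count was 2 without 24 h array a. Of 19 genes of the respiratory chain and its biogenesis 4 were higher, PPARGC1A by far the most, and 2 lower, cytochrome c CYCS (-0.44) and the factor NRF1 (-0.37). Of 25 matrix and integrin genes 3 were higher, led by periostin POSTN (0.52), and 0 lower, or 2 lower without 24 h array c. The unfolded protein response had 4 of 18 higher and 0 lower, led by HERPUD1 (0.34). Of 28 lysosome and autophagy genes 4 were higher and 3 lower, and the higher count was 0 without 24 h array a or 3 h array a, 1 without 24 h array c and 2 without 3 h array b, while the lower count was 1 without 24 h array a. The zinc exporter SLC30A1 (-1.08) and the iron exporter SLC40A1 (0.92), which lay below the filter value in both DMSO groups, were the largest changes in the metallothionein and iron lists, in which MT2A (0.30) was the only other call.

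Promoter windows of the 250 bases before the start were taken from RefSeq for 8158 tested genes, with none entered for CCN1. Genes on chromosome 8 were left out of the search, so all shares below lack them. Motifs were searched on both strands. Among all called genes the shares lay near those of all windows. The TEAD half-site GGAATG occurred in 10.1% of the 1219 windows of genes called lower at 24 h and in 9.51% of the 1335 called higher, against 9.4% of all windows. The NF-kB motif occurred in 2.13% and 2.17% of the same sets against 2.05% of all, the TATA box TATAAA in 5.82% and 5.62% against 4.9%, and the E-box CACGTG in 9.43% and 10.3% against 9.57%. The AP-1 motif TGANTCA occurred in 4.84% and 3.45% against 3.64%, and the cyclic AMP element TGACGTCA in 3.86% and 2.62% against 3.02%. In the small subsets called and at least 1.5-fold lower (156 windows) or higher (193 windows), GGAATG occurred in 25 (16%) and 17 (8.81%), TGANTCA in 14 (8.97%) and 8 (4.15%), TATAAA in 15 (9.62%) and 9 (4.66%), the cyclic AMP element in 9 (5.77%) and 4 (2.07%), the NF-kB motif in 6 (3.85%) and 2 (1.04%), and CACGTG in 15 (9.62%) and 27 (14%). For these 6 motifs the differences were thus seen in the subsets and not, or less, in the full called sets. The SRF site was in 1.72% of both called sets against 1.04% of all windows. The sterol element was in 1.48% of the lower and 0.674% of the higher set, against 0.883%. In the 1.5-fold lower subset CCAAT was in 35.9% against 35.6%, TTTGAA in 7.05% against 8.49% and TTANNTAA in 3.21% against 2.55%. The SRF site was in 1.92% of that subset and the sterol element in 0%. These shares are descriptions, a match is not a binding site, and the TEAD and TATA motifs and the windows printed were chosen after the values had been seen.

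The same interval in inhibitor-treated cells was read from other arrays, which share none with the DMSO comparison. Called higher at 24 h than at 3 h were 35.3% of genes with LGX818, 32% with trametinib, 33% with MEK162 and 33.1% with the ERK1/2 inhibitor, and called lower were 34.7%, 36%, 36.4% and 35%. Of the 1586 genes higher in DMSO cells 901 (56.8%) were called higher with all 4 inhibitors and 187 (11.8%) lower with all 4, against 25.5% and 28.3% of all tested genes. Of the 1457 genes lower in DMSO cells 711 (48.8%) were called lower with all 4 and 155 (10.6%) higher with all 4. Below the filter value in both DMSO groups were 105 of the 1586 and 35 of the 1457. Those genes were tested because an inhibitor group passed it, so their calls with inhibitors are not independent of the filter. Across all tested genes the difference with an inhibitor and that in DMSO correlated at Pearson r = 0.309 to 0.344, where genes are not independent and arrays share a platform and a normalisation. In the difference between the change over time with inhibitors (mean of 4) and the change in DMSO cells, 2732 genes were higher (28.2%) and 2939 lower (30.3%).

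Of the 37 rises past 2-fold 31 were also called higher with all 4 inhibitors, against 25.5% of all tested genes. Of the 35 falls past 2-fold 14 were called lower with all 4, and 8 were called higher with all 4 (DKK1, CCL2, JUN, LINC02984, GADD45B, PMEPA1, RGS3 and DLX2), so 40% and 22.9% of the falls stood beside 28.3% and 25.5% of all tested genes. The change with inhibitors minus that in DMSO passed the test upward for 28 of the 35 falls and downward for 5, and upward for 16 of the 37 rises and downward for 10. These genes were chosen on their DMSO change, which enters the difference, so these counts describe them and test nothing further. Also, 7 of the 37 rises and 3 of the 35 falls, LINC02984 among them, lay below the filter value in both DMSO groups. They were tested because an inhibitor group passed it, so their calls with inhibitors are not independent of the filter.

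CCN1 stood at 10.1 to 10.5 log2 in the 4 inhibitor groups at 24 h and at 10.9 to 11.1 log2 at 3 h, so its falls there were 0.38 to 0.98 log2 beside 2.85 in DMSO cells. CCN2 stood at 10.2 to 10.9 log2 in all 8 inhibitor groups, a range that holds the DMSO level at 24 h (10.5) and not that at 3 h (12.7). For CCN1 the DMSO group at 24 h was the one apart from the others, and for CCN2 it was the DMSO group at 3 h. DKK1 averaged 11.1 to 12.1 log2 with inhibitors at 24 h and 10.1 to 10.9 log2 at 3 h, a rise of 0.85 to 1.52 log2 over the interval in which it fell by 2.43 log2 in DMSO cells. JUN averaged 12.1 to 12.2 log2 with inhibitors at 24 h and 9.76 to 9.99 log2 at 3 h, a rise of 2.19 to 2.36 log2. CXCL1 fell with every inhibitor, by at least 2.49 to 2.84 log2, to 5.08 to 5.75 log2 at 24 h. Those levels are near those of the leukocyte and epithelial lists, so the falls may be cut short by the background of the array, and how they compare with the fall in DMSO cells is not settled by the test (-0.43 log2, adjusted p = 0.21).

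**Figure D4:**
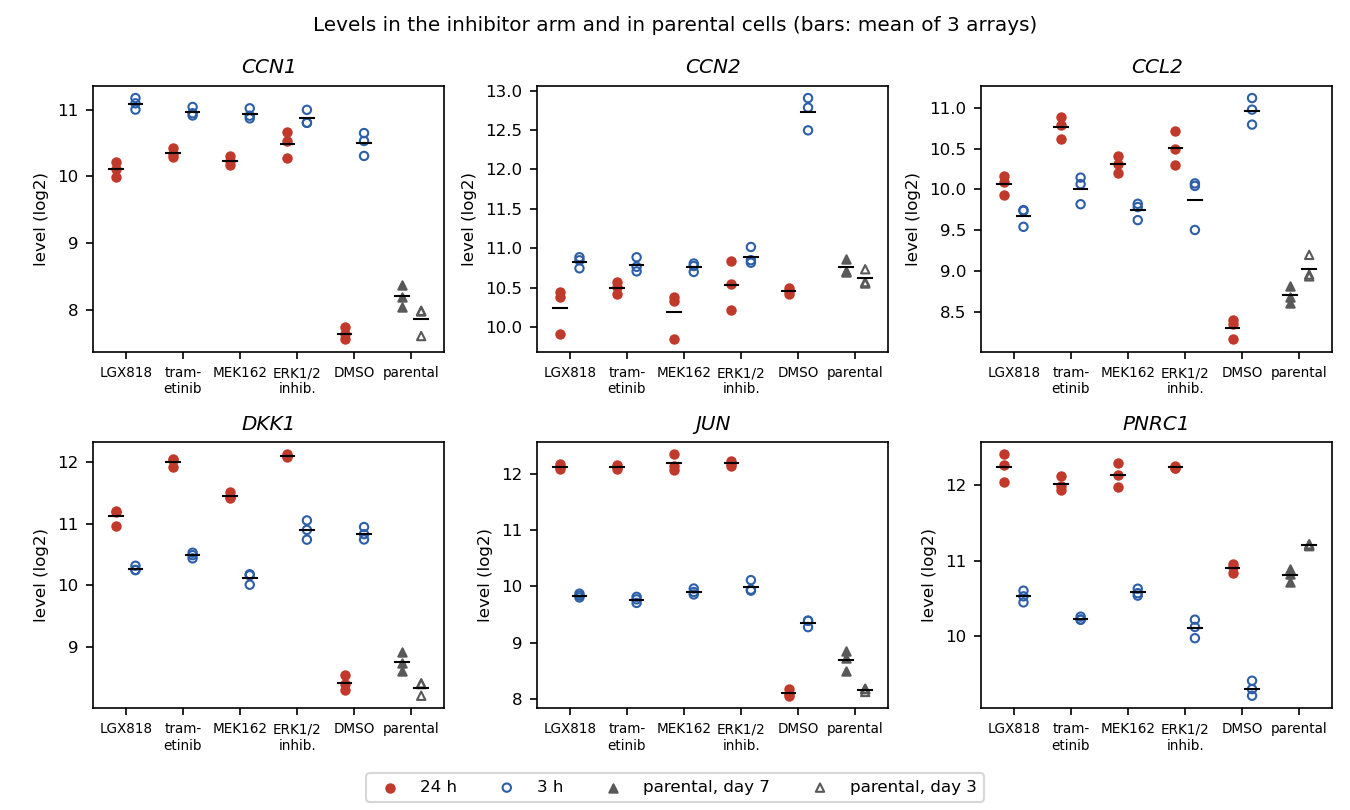
Level (log2, vertical axis) of 6 genes in each array of the inhibitor experiment and of parental cells, with 1 panel per gene, 24 h to the left of 3 h for each treatment and day 7 to the left of day 3 for parental cells. CCN1, DKK1, CCL2 and JUN are lowest in DMSO cells at 24 h and in parental cells, while CCN2 is highest in DMSO cells at 3 h.

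PNRC1 averaged 12.01 to 12.24 log2 with inhibitors at 24 h and 10.1 to 10.6 log2 at 3 h, above the DMSO group of the same time in each case, and its rise differed from that in DMSO cells by 0.20 log2 (adjusted p = 0.0691). YPEL2 (-0.05, adjusted p = 0.597) and CCNG2 (-0.08, adjusted p = 0.557) also rose by amounts not separable from those in DMSO cells. KLHL24 rose by 2.12 to 2.46 log2 with inhibitors, 1.16 log2 more than in DMSO cells. CPVL fell by 0.69 to 1.08 log2 with inhibitors and rose in DMSO cells. Its 3 h levels were 9.32 to 9.49 log2 with inhibitors and 9.33 log2 in DMSO cells, so the groups were close at 3 h. MITF moved by -0.07 to 0.05 log2 with inhibitors, and its rise in DMSO cells was 0.53 log2 larger (adjusted p = 2.62e-09). The cell cycle genes, few of which changed in DMSO cells, did so with inhibitors. In the change with inhibitors minus that in DMSO cells, 38 of 38 G1/S genes and 40 of 40 G2/M genes were lower, with medians of -2.37 and -3.18 log2. Among all tested genes 30.3% were lower and 28.2% higher in that difference.

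A group mean stood more than 1 log2 below the means of each of the other 9 groups of the inhibitor experiment in DMSO cells at 24 h for 11 genes, which were CCN1, DKK1, CCL2, JUN, B3GALT2, DACT1, AMOTL2, MIR22HG, GADD45B, COL5A3 and LINC02984. It stood as far above all the others for 3 genes, CPVL, GJB1 and NHEG1. Both counts are out of 9703 tested genes and were made for DMSO cells at 24 h alone. Whether other groups stand apart for as many genes was not counted. LINC02984 lay below the filter value in both DMSO groups and was tested because an inhibitor group passed it.

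Parental cells at day 7 and day 3 offer levels from cultures outside the inhibitor experiment. Of the 35 genes at least 2-fold lower at 24 h, the parental mean at day 3 lay nearer to DMSO at 24 h than to DMSO at 3 h for 33, and of the 37 at least 2-fold higher for all 37. At day 7 these counts were 32 of 35 and 31 of 37. Among all called genes, parental cells at day 3 were nearer to DMSO at 24 h for 1339 of the 1586 higher and for 1308 of the 1457 lower. The counts were made for called genes only, and the share over all tested genes was not taken. They therefore do not show whether this nearness is particular to the called genes. CCN1 averaged 8.21 log2 in parental cells at day 7 and 7.86 log2 at day 3, beside 7.65 log2 in DMSO cells at 24 h and 10.5 log2 at 3 h. DKK1 averaged 8.76 log2 at day 7 and 8.34 log2 at day 3, beside 8.41 log2 in DMSO cells at 24 h and 10.8 log2 at 3 h. PNRC1 averaged 10.8 log2 at day 7 and 11.2 log2 at day 3, beside 10.9 log2 in DMSO cells at 24 h and 9.31 log2 at 3 h.

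The change between the days in parental cells ran against the change between the times in DMSO cells. Between day 7 and day 3, 336 genes were called higher (3.44%) and 343 lower (3.51%). Of 1529 genes higher in DMSO cells at 24 h that were also tested in the shRNA experiment, 7 were higher and 230 lower at day 7. Of 1420 lower in DMSO cells, 137 were higher and 18 lower at day 7. Of the rises past 2-fold 19 of 32 were lower and 0 higher at day 7, and of the falls past 2-fold 6 of 35 were higher and 0 lower. Across 9456 genes the 2 differences correlated at r = -0.458, with genes not independent. CXCL1 (0.84), JUN (0.53), TNFRSF12A (0.55) and DKK1 (0.42) were higher at day 7, and CPVL (-0.91), KLHL24 (-0.52), GJA5 (-0.49) and YPEL2 (-0.49) were lower. These counts moved with single parental arrays. The 230 genes became 169, 114 and 198 without day 7 arrays a, b and c and 173, 150 and 122 without day 3 arrays a, b and c, and the 137 became 85, 90, 71, 61, 76 and 80 in the same order. The 19 became 14, 9, 17, 12, 13 and 10, and the 6 became 4, 3, 3, 3, 4 and 5. The parental counts themselves became 221, 242, 192, 165, 204 and 213 higher and 266, 181, 298, 266, 229 and 188 lower.

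**Figure D5:**
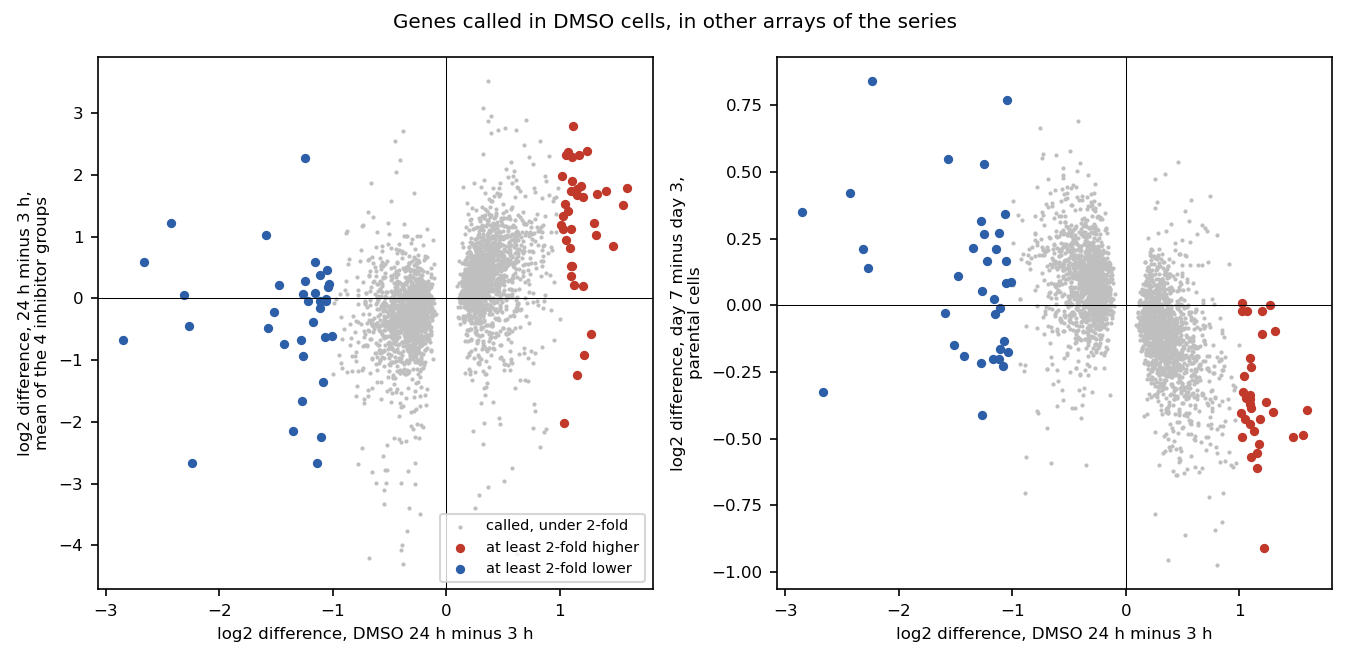
Genes called in DMSO cells, with their difference between 24 h and 3 h in DMSO cells (log2, horizontal axes) against the mean difference between 24 h and 3 h in the 4 inhibitor groups (left panel) and the difference between day 7 and day 3 in parental cells (right panel), 1 point per gene. Coloured points are the 37 rises and 35 falls past 2-fold, of which most rises lie above 0 in the left panel and below 0 in the right panel.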

How the data were processed

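Total RNA was biotin-labelled and hybridised to Affymetrix expression arrays, per the labels' protocols. The deposited values are log2 intensities. The submitters' processing notes name RMA and affy, with which the authors made them. Versions, chip definition and genome build are not given in the sources used here. The table holds 18989 probe sets, of which 62 are control probe sets, 17875 carry 1 gene symbol in the platform annotation and 1052 were not listed there. Values run from 2.51 to 14.8 and array medians from 7.78 to 8.04, and the number of arrays limits the precision.

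The 30 arrays of the inhibitor experiment were fitted with 1 mean per group in limma 3.58.1 (R 4.3.3) with an intensity trend and Benjamini-Hochberg adjustment over 9703 genes, with 20 residual degrees of freedom. The 24 arrays of the shRNA experiment, which hold the parental cells, were fitted alike over 9779 genes with 16. No 2 of the 54 arrays held identical values. The fit was tested on simulated data. Named genes are the 15 largest rises and 15 largest falls among called genes whose arrays do not overlap, up to 2 called members each way of each of 42 gene lists, and genes fixed by name, such as EGR1, MYC, MITF and the clock genes, 137 tested genes in all. Further members of lists and of the genes past 2-fold are named as examples, chosen after their values were seen. The members and lists were chosen with earlier results of these data known. Alternatives changed the level filter, the arrays fitted, the prior, the normalisation, the fold threshold and the array letter as a block, and left out single arrays.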

Additional observations from a re-analysis of the deposited data

Results flagged for a closer look

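The change between 24 h and 3 h was tested for a difference between inhibitor-treated cells (mean of 4 inhibitors) and DMSO cells, and 2732 genes were higher and 2939 lower with inhibitors. The genes below were picked on their change in DMSO cells, which enters this difference with the opposite sign, so a difference towards 0 is favoured by the choice. The values are log2 differences, inhibitors minus DMSO.

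Among the 15 largest rises in DMSO cells, the change was lower with inhibitors for CPVL (-2.13), ARRDC3 (-1.85), TMT1B (-1) and GJA5 (-0.62), and higher for KLHL24 (1.16), FAXDC2 (1.15), STON1 (0.64), MCPH1-DT (0.52) and RUBCNL (0.44). Among the 15 largest falls, the change was higher with inhibitors for DKK1 (3.66), CCL2 (3.25), LINC02984 (2.62), B3GALT2 (2.37), CCN1 (2.18), CCN2 (1.82), MIR22HG (1.70), DACT1 (1.30), TNFRSF12A (1.08), AJUBA (0.68) and LTO1 (0.61), and lower for OSGIN1 (-0.80) and SERTAD4 (-0.39), whose falls were larger with inhibitors.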

How the results depend on the processing

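The counts of 1586 higher and 1457 lower genes stayed within 1.5 times under the alternatives run, other than the fold threshold, which left 37 and 35. Leaving out single DMSO arrays gave 1178 to 1443 higher and 1169 to 1336 lower, and none of the called genes took the opposite sign under any alternative run. Centring each array on its median moved the median of all genes to 0.0233 log2 and the split to 1851 higher and 1330 lower. Array letters are shared by the groups, but deviations of same-lettered arrays correlated at -0.073, 0.254 and 0.291 for a, b and c, so the letters were not taken to pair the samples. With the letter as a replicate block 1639 genes were higher and 1516 lower, 3015 of the 3043 genes remained called, and 4 of 6 arrays correlated best with their own letter. With this block 5 clock genes were higher in place of 3. With the 6 DMSO arrays fitted alone EGR1 passed, and HSPA4L, MMP8, MAP1LC3C and PER3 did not. Centring ended the calls of DUSP6 and CCND1, and the fit of all 54 arrays those of MMP16 and PER3. In parental cells, leaving out single arrays gave 165 to 242 genes higher and 181 to 298 lower at day 7. No array records scan or extraction batches here, so none could be tested.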

Other observations

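Gene families were grouped by their symbols after the values had been seen, so these counts describe and test nothing. All 4 tested YPEL genes were higher in DMSO cells at 24 h than at 3 h: YPEL2 (1.56 log2), YPEL4 (1.12), YPEL3 (1.01) and YPEL5 (0.32). YPEL4 lay below the filter value in both DMSO groups (6.73 log2 at 24 h and 5.62 log2 at 3 h). Of 5 tested symbols that begin with SERTAD, 4 were lower and 0 higher, SERTAD1, SERTAD2, SERTAD4 and its antisense transcript SERTAD4-AS1. The arrays' use of strand was not checked for SERTAD4 and its antisense transcript. Of 41 tested NDUF genes, which code for respiratory complex I and its assembly factors, 9 were higher (22%) and 0 lower, with a median of 0.103 log2. Among all tested genes 16.3% were higher and 15% lower, so the higher share of the NDUF genes was not far from that of all genes. Their lower share was below that of all genes. Of 28 POLR genes, subunits of the RNA polymerases, 2 were higher (7.14%) and 10 lower (35.7%). Of 277 ZNF genes 26 were higher and 57 lower, beside 16.3% and 15% of all tested genes. Non-coding transcripts differed by kind: 37 of 98 antisense transcripts (37.8%) and 17 of 49 LINC transcripts (34.7%) were higher, with 9 and 4 lower. Among 18 snoRNA host genes (SNHG) 1 was higher (5.56%) and 7 lower (38.9%).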
